A study of Danio rerio with 18 samples.

Results

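Among the m5C sites of zebrafish embryos at 4 hours post fertilisation (hpf), 762 had a methylation level of 50% or more, and 264 of them were missing from the site list of 6 hpf. These 264 sites, called absent high sites here, are described below. They were chosen by 2 measured values, the level at 4 hpf and the absence at 6 hpf, so neither value is a result. They made up 34.6% of the high sites (Wilson 95% interval 31.4% to 38.1%) and 4.48% of the 5889 sites of the 4 hpf list, in 256 genes. The other 498 high sites were listed at both stages and are called kept high sites. All lists together name 9047 distinct sites.

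The study treated polyadenylated RNA of wild type AB zebrafish with bisulfite and sequenced it at 9 stages, from 0, 2 and 4 hpf over 6, 8 and 10 hpf to 16, 24 and 48 hpf. No stage received a drug or carried a mutation, and each library came from RNA of a pool of whole embryos or, for the larval stage, of larvae. Each stage had 2 libraries, 18 in all, which were combined into 1 list of called sites, so that the variation between libraries is not known for any value below. Bisulfite leaves a methylated cytosine to be read as C and turns an unmethylated one into T. The level of a site is the percentage of C among its C and T reads, and its coverage is the sum of both. Every list from 0 to 10 hpf began at 20 reads and a level of 10%. A site missing from a list may be below either minimum, may have failed another filter or may carry no methylation, and these cases cannot be told apart. Since whole embryos were pooled, fewer cells with a transcript and fewer copies per cell cannot be told apart either. All intervals given are 95% intervals. For a share or a single site they hold counting error alone, in which reads copied by PCR count as separate reads, and for a median they hold the spread among sites.

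In the first hours a zebrafish embryo lives on mRNA that its mother placed in the egg. Its own genome is switched on in the blastula, and much of the maternal mRNA is cleared around the start of gastrulation, in the interval covered by the lists of 4 and 6 hpf. In mRNA the methyl group on the fifth carbon of cytosine is placed by the enzymes Nsun2 and Nsun6, and the zebrafish protein Ybx1 binds such sites on maternal mRNA.

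Absent high sites had few reads at 4 hpf. Their median coverage was 57 reads (95% interval 54 to 62, quartiles 44 and 90.2, range 20 to 565), against 308 reads for kept high sites (260 to 347, range 31 to 30700). The median number of C reads was 40. In contrast to coverage, the level hardly separated both sets, with a median of 66.7% for the absent and 66.8% for the kept sites, and quartiles of 57.1% and 80.8% against 57.7% and 80.6%. Of the kept sites 145 were at least as deep as the deepest absent site, which had 565 reads. Absent sites lay on 25 chromosomes and 1 unplaced scaffold, 135 on the plus and 129 on the minus strand.

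**Figure D1:**
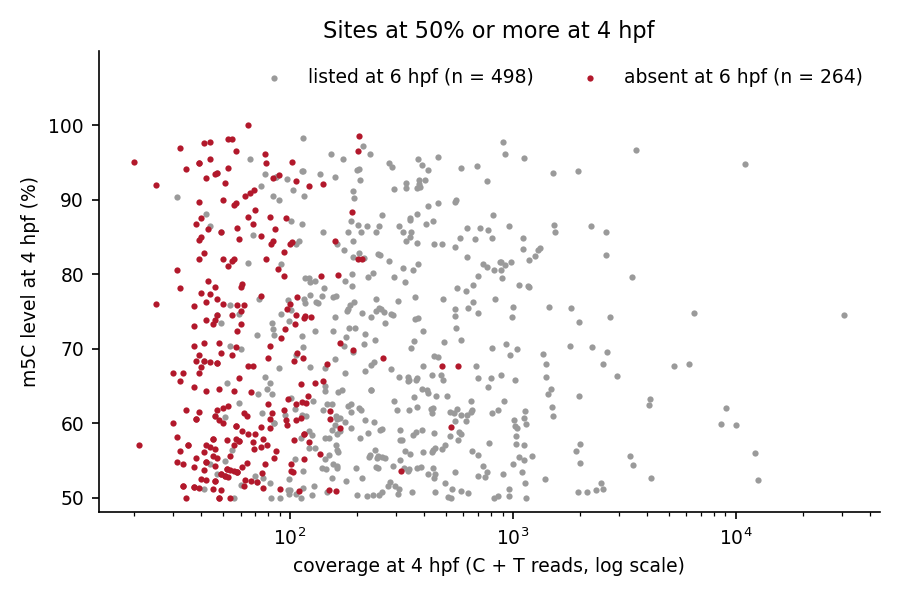
Coverage (C plus T reads, log scale) and m5C level in percent at 4 hpf of the 762 sites with a level of 50% or more, where each point is 1 site. Red points are the 264 sites absent at 6 hpf and grey points the 498 listed at 6 hpf; the red points crowd at low coverage, with a median of 57 against 308 reads, and spread over the same levels as the grey ones.

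The share of high sites that was absent followed coverage. It was 89.2% (99 of 111 sites) at 20 to under 50 reads, 68.6% (109 of 159) at 50 to under 100 reads and 29.0% (47 of 162) at 100 to under 200 reads. Only 7 of 166 sites (4.22%) with 200 to under 500 reads and 2 of 164 (1.22%) with 500 or more were absent. For sites with a level under 50%, the absent share was higher in each of these classes, at 94.9%, 86.5%, 69.1%, 47.0% and 36.4%, and 63.5% over all 5127 of them. Across classes of level from 50% upward in steps of 10 points, 37.5%, 34.1%, 30.5%, 31.0% and 39.5% of high sites were absent, with no order from low to high. Median coverage in these classes was 149, 163, 156, 212.5 and 115 reads, and its part in the shares was not tested.

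**Figure D2:**
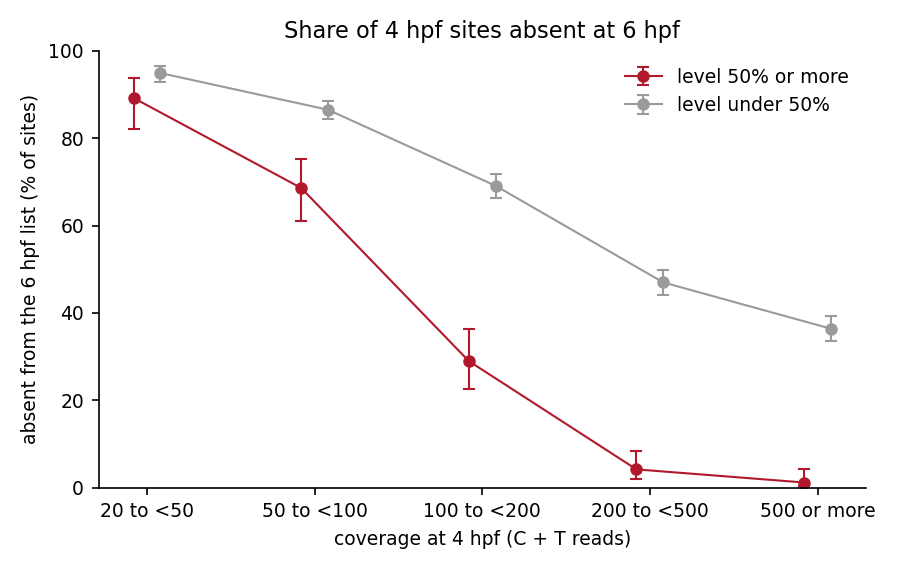
Percentage of 4 hpf sites absent from the 6 hpf list in 5 classes of coverage at 4 hpf, for sites at 50% or more (red) and under 50% (grey), with Wilson 95% intervals as bars. The red share goes from 89.2% in the lowest class to 1.22% in the highest, and the grey share from 94.9% to 36.4%.

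The 9 absent sites with at least 200 reads stand apart from this pattern. The deepest was in cdc7, the kinase that starts DNA replication at its origins (ENSDARG00000023584, chromosome 2, position 10655783, minus strand, positions of the Zv9 assembly). It had 1533 C reads of 2234 at 0 hpf (68.6%), 594 of 845 at 2 hpf (70.3%) and 382 of 565 at 4 hpf (67.6%). Its level was thus between 67.6% and 70.3%, with overlapping intervals, while its reads were fewer at each later stage. The second was in ZNF628, a zinc finger protein (ENSDARG00000087439, chromosome 16, position 14379378, plus strand), with 34 of 52 reads at 0 hpf (65.4%), 213 of 309 at 2 hpf (68.9%) and 314 of 528 at 4 hpf (59.5%). Here coverage was higher at each stage, the opposite order to cdc7. The third was in si:zfos-943e10.1 (chromosome 22, position 3252019, minus strand), with 65.6% of 259 reads at 2 hpf and 67.6% of 481 at 4 hpf, and it was not listed at 0 hpf.

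Next came ephb4b, a receptor kinase for ephrins on neighbouring cells (chromosome 23, position 44520432, plus strand), with 49.0% of 49 reads at 0 hpf, 44.2% of 181 at 2 hpf and 53.5% of 314 at 4 hpf. The site in kalrna, of the cytoskeleton group (chromosome 9, position 4353695, plus strand), had 70.4% of 287 reads, 70.2% of 198 and 68.7% of 262 at the same stages. That of mbd2, a protein that binds methylated DNA (chromosome 5, position 1454227, plus strand), had 82.9% of 240 reads, 87.8% of 115 and 82.0% of 211. Among these genes the level differed most in ephb4b, between 44.2% at 2 hpf and 53.5% at 4 hpf. The Wilson intervals of the 3 stages overlap for each of them, which does not show that the levels were equal.

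An adjacent pair of cytosines in tecpr2, a gene of autophagy (ENSDARG00000060835, chromosome 17, minus strand), was absent as well. Position 29357344 had 79 C reads of 88 at 2 hpf (89.8%) and 202 of 205 at 4 hpf (98.5%), and position 29357343 had 84 of 89 (94.4%) and 196 of 203 (96.6%). Adjacent positions share reads, so these are not independent measurements. The last of the 9 was in axin2, a scaffold of the complex that degrades β-catenin and itself a target of Wnt signalling (ENSDARG00000014147, chromosome 3, position 56627392, plus strand). It had 48 C reads of 53 at 0 hpf (90.6%), 208 of 231 at 2 hpf (90%) and 165 of 201 at 4 hpf (82.1%).

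None of these 9 sites was listed at a later stage, and none of their genes had another site at 6 hpf. Kept high sites had a median ratio of 6 to 4 hpf coverage of 0.488 (0.439 to 0.537, n = 498), and those with at least 200 reads 0.482 (0.422 to 0.537, n = 321). At the median ratio of 0.488, 276 reads would remain at the cdc7 site and 98.1 at the axin2 site. To fall to 20 reads the cdc7 site would need a ratio of 0.0354, below the lowest of the kept sites (0.0717), and the axin2 site a ratio of 0.0995, below which 2 of 498 kept sites lay. Kept sites are by definition those that still had 20 reads, so their ratios leave out stronger decreases. By level, 41 of the 498 kept sites (8.23%) were under 20% at 6 hpf. Whether coverage, level or another filter removed the 9 sites was not tested.

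Over all absent sites, the median ratio of 0.488 would leave 216 with at least 20 reads at 6 hpf and 48 with fewer. In the 62 kept sites with under 100 reads at 4 hpf the ratio was 0.671 (0.592 to 0.75). Both ratios come from sites that still had 20 reads at 6 hpf. They leave out stronger decreases, so the count of 216 may be too high. Having 20 pooled reads also does not ensure listing, since the authors' filters looked at both libraries. The kept high sites had a median level of 47.0% at 6 hpf (45% to 49.2%), and their median change was -18.7 percentage points (-20.4 to -17.1).

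Most absent sites had been listed before 4 hpf, and at levels like those of 4 hpf. At 2 hpf 218 of 264 (82.6%) were listed, at 0 hpf 115 (43.6%), 111 at both stages, and 42 at neither. The corresponding shares of kept sites were 97.6% (486 of 498) and 78.7% (392 of 498). The median level of absent sites was 70.1% at 0 hpf (64.2% to 75.9%, n = 115) and 67.3% at 2 hpf (63.3% to 70.1%, n = 218). A level of 50% or more had already been reached by 94 of 115 at 0 hpf (81.7%) and by 181 of 218 at 2 hpf (83.0%, 77.5% to 87.4%). These shares were higher in kept sites, 346 of 392 at 0 hpf (88.3%) and 447 of 486 at 2 hpf (92.0%, 89.2% to 94.1%). The difference was not tested. The 42 sites listed at 4 hpf for the first time had a median coverage of 41 reads and a median level of 66.1%.

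In the 111 absent sites listed at 0, 2 and 4 hpf the median level was 70.1%, 68.9% and 68.8%, and in the 390 kept sites of the same kind 68.7%, 67.5% and 66.1%. Coverage differed between both sets in its course. In the absent sites its median was 73, 94 and 77 reads, and in the kept sites 160, 325 and 371 reads. The median ratio of 4 to 0 hpf coverage was 0.846 (0.642 to 1.0, n = 115) for absent and 2.09 (1.79 to 2.36, n = 392) for kept sites. Coverage was lower at 4 than at 0 hpf in 66 of 111 absent sites (59.5%, 50.2% to 68.1%) and in 108 of 390 kept sites (27.7%, 23.5% to 32.3%). These shares were not tested, since low coverage at 4 hpf is tied to absence at 6 hpf and sites are not replicates of a stage. They also depend on the depth and composition of each library, and listing at 0 hpf needs 20 reads there.

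**Figure D3:**
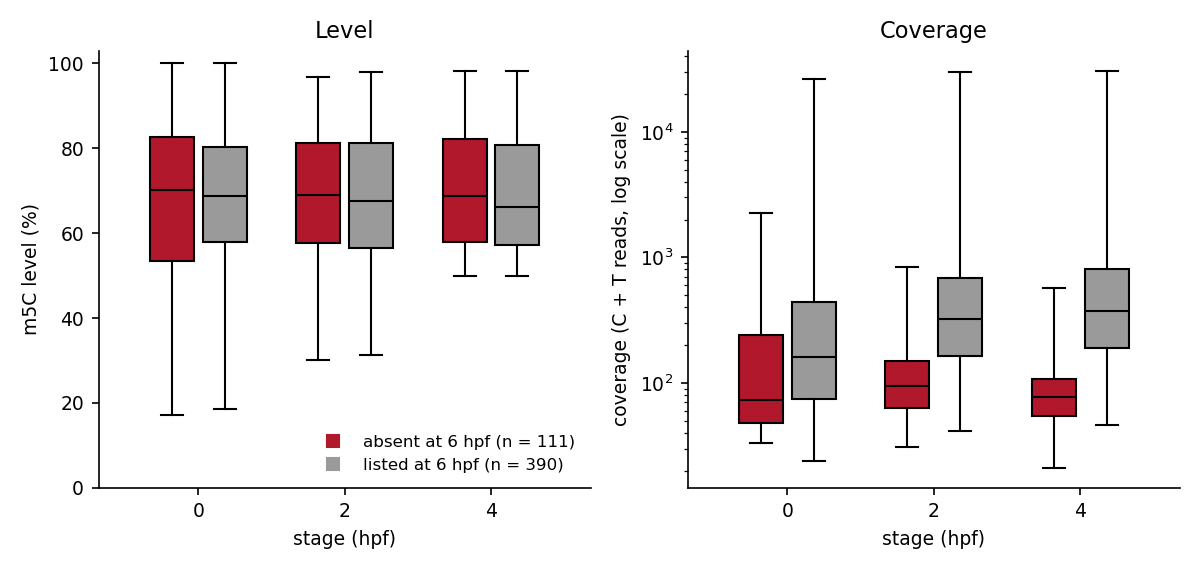
m5C level in percent (left) and coverage in C plus T reads (right, log scale) at 0, 2 and 4 hpf of high sites listed at all of these stages, where boxes show quartiles, lines the median and whiskers the full range over sites. Levels of the 111 absent sites (red) and 390 kept sites (grey) overlap widely at each stage, while median coverage went from 73 to 77 reads in the absent and from 160 to 371 in the kept sites.

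The change from 0 to 2 hpf uses neither value that chose the sites, so it was tested. Fisher's exact test of the read counts, with Benjamini-Hochberg adjustment at 0.05, called 4 of 111 absent sites higher and 4 lower at 2 hpf (3.6% each). Over all 3373 sites listed at both stages it called 4.83% higher and 4.86% lower. The share in absent sites (interval 1.41% to 8.9% each way) was thus close to the background. Of 390 kept high sites 26 (6.67%) were called higher and 25 (6.41%) lower. Kept sites had more reads, a median of 160 against 73 at 0 hpf, and the difference in shares was not tested. At an unadjusted p under 0.05 there were 17 of 111 (15.3%), against 19.6% of all 3373 sites. The median change was 0.769 points (-1.6 to 1.63). The test takes no account of variation between libraries. With a spread between stages added, 1 absent site was called higher and 0 lower, against 1.1% and 1.42% of all sites. By that beta-binomial z test 15.3% of the absent sites (17) had an unadjusted p under 0.05, against 12.1% of all sites.

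The 4 sites called lower were in tmub1, ssfa2, ENSDARG00000023479 and tmem39a. In tmub1, a ubiquitin-like membrane protein (chromosome 2, position 32287794, minus strand), the level fell from 66.5% of 1075 reads to 54.3% of 383 reads (adjusted p = 0.000755, Fisher's exact test), and it was 50.9% of 161 reads at 4 hpf. In ssfa2 (chromosome 9, position 45477977, plus strand) it fell from 67.7% of 232 reads to 42.6% of 47 reads (Fisher's exact test, adjusted p = 0.0218), with 50% of 48 reads at 4 hpf. These genes thus reached 4 hpf near the threshold of 50%. ENSDARG00000023479 fell from 93.2% of 44 reads to 67.8% of 59, and tmem39a from 76.8% of 259 reads to 61.3% of 106.

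The 4 called higher were in CABZ01030262.1, si:ch73-46j18.5, wdr90 and trappc6b. CABZ01030262.1 (chromosome 13, position 49978869, plus strand) rose from 35.9% of 39 reads to 70.0% of 80 reads (adjusted p = 0.011, Fisher's exact test), and was the 1 call that remained with the added spread. The site of si:ch73-46j18.5 rose from 17.1% of 70 reads to 46.3% of 41 reads. The rise in wdr90, a protein of centrioles, was 7.93 points, from 87.6% of 339 reads to 95.5% of 202 reads, and that in trappc6b, a subunit of a tethering complex for vesicles, was from 70.1% of 134 reads to 85.0% of 160 reads.

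In 8 genes 2 absent sites were found, and no gene had more. Within a pair the levels could differ widely. In rhobtb2a (chromosome 5, plus strand), position 45098029 had 95.5%, 96.4% and 98.2% at 0, 2 and 4 hpf, on 44 to 56 reads, whereas position 45097782 had 60.8%, 50% and 51.3% on 38 to 51 reads. The order of both sites was the same at each stage. In C2CD3, needed for the growth of centrioles, the site at 14289821 of chromosome 15 had 71.9%, 67.1% and 68.8%, and that at 14291318 had 48.9%, 42.5% and 51.0%. In tamm41, a mitochondrial enzyme of cardiolipin synthesis, the levels were 57.6%, 63.3% and 68.3% at position 730253 of chromosome 11 and 49.1%, 45% and 57.1% at 729533.

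Both sites of NRD1, the peptidase nardilysin (chromosome 2, plus strand), were high from 0 hpf on. Position 36555203 had 97.4%, 91.9% and 87.5% at 0, 2 and 4 hpf, and position 36555617 had 93.8%, 86.3% and 84.1%. Listed again at 8 hpf, they had 28.6% of 84 reads and 25.2% of 131 reads. The neighbouring positions 19372952 and 19372953 of chp2, a calcium-binding regulator of sodium and proton exchange (chromosome 15, minus strand), had 74.5% and 57.1% at 4 hpf and 52.7% and 36.2% at 8 hpf. The other pairs were the tecpr2 pair, 2 sites of pygo2, a coactivator of Wnt signalling, with 51.0% of 49 reads and 66.7% of 39, and 2 of jmjd1cb, a gene of the histone demethylase family, with 94.9% of 39 reads and 64.3% of 56. The jmjd1cb sites were in no list before 4 hpf.

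Highest levels among the absent sites with at least 100 reads were found in tecpr2, then in grin2ab, RBM25 and wdr90. The site in grin2ab, a subunit of NMDA-type glutamate receptors (chromosome 1, position 7886934, minus strand), had 76 C reads of 77 at 2 hpf (98.7%) and 97 of 102 at 4 hpf (95.1%). The site in RBM25, a splicing factor (chromosome 13, position 33243520, minus strand), had 78.8% of 33 reads at 0 hpf, 93.4% of 76 at 2 hpf and 92.5% of 106 at 4 hpf. Over all coverages 32 absent sites were at 90% or more, and 1 was at 100%, in fam49bb, with 65 of 65 reads at 4 hpf (94.4% to 100.0%) and 38 of 38 at 2 hpf.

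At the lower end 50 sites were under 55% and 4 at exactly 50%, and the Wilson interval lay above 50% for 154 of 264. Just inside the threshold were dicer1, the nuclease that makes microRNAs, with 27 of 54 reads, and fam65b and ssfa2, with 24 of 48 each. Just outside, at 6 hpf likewise absent, were cyb561d2 and dagla with 49.3% of 73 reads each and tulp4a with 49.1% of 57. A further 5 points below the threshold, from 45%, held 53 absent sites in all.

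The 256 genes were sorted by symbol into groups of known function, and each group was compared with all high sites of the same group. Against 34.6% of all high sites, the absent share was highest for patterning signals, 8 of 12 high sites (66.7%, 39.1% to 86.2%). In this group were axin2, gdf6a, a growth factor of the BMP family, and invs, an inhibitor of canonical Wnt signalling, and also PRICKLE2 of planar cell polarity, jag2b, a ligand of Notch, smad3b, which carries TGF-β signals, and both pygo2 sites. For gdf6a (chromosome 16, position 41793696, minus strand) the level was 46.2% of 119 reads at 2 hpf and 57.4% of 122 at 4 hpf, and for invs 34.3% of 70 and 55.3% of 85. Of the 8 sites 2 were listed at 0 hpf, 7 at 2 hpf and none at 8 hpf. The median coverage of the group's high sites was 83 reads, against 161 reads over all 762 high sites, and its part in the share was not tested.

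Zinc finger and other transcription factors had 15 of 31 high sites absent (48.4%, 32.0% to 65.2%), with 130 reads as the median coverage of the 31. Behind ZNF628 the deepest were creb3l2, a membrane-bound factor of the CREB family, with 67.4% of 86 reads at 2 hpf and 63.6% of 121 at 4 hpf, and ZNF462, with 43.6% of 39 reads at 0 hpf, 61.5% of 65 at 2 hpf and 68.7% of 115 at 4 hpf. The site in sall4, a factor of pluripotent cells, had 72.5% of 51 reads at 2 hpf and 74.5% of 55 at 4 hpf. In this group 4 of 15 sites were listed at 0 hpf and 12 at 2 hpf, and none was at 8 hpf, hinfp alone being listed at 10 hpf. The site of irf5, an interferon regulatory factor, had by far the most reads of them at 0 hpf, 1322, and 90 at 2 hpf and 100 at 4 hpf, with levels of 82.5%, 81.1% and 84.0%.

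Kinases, phosphatases and GTPase signalling gave the most absent sites of any named group, 29 of 66 (43.9%, 32.6% to 55.9%), with 157 reads as the median coverage of the 66. The deepest were mknk2a, the kinase that phosphorylates the cap-binding factor eIF4E, pask, a kinase with a PAS domain, and rps6ka1, a kinase downstream of ERK. The mknk2a site (chromosome 2, position 22471825, plus strand) had 80.0% of 729 reads at 0 hpf, 81.5% of 363 at 2 hpf and 84.4% of 160 at 4 hpf. The pask site (chromosome 2, position 44589853, plus strand) had 78.1% of 608 reads, 72.3% of 195 and 79.7% of 138. Coverage was lower at each stage in both genes while the level stayed within 10 points, and rps6ka1 had 51.2% of 129 reads at 2 hpf and 58.6% of 116 at 4 hpf.

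Of the other groups, adhesion, matrix and egg coat had 10 of 23 high sites absent (43.5%), vesicle traffic 20 of 49 (40.8%) and glycan synthesis and protein folding 7 of 20 (35.0%). The cytoskeleton group had 17 of 54 (31.5%), membrane transport 5 of 16 (31.2%), mitochondrial and metabolic genes 19 of 63 (30.2%), chromatin and transcription machinery 20 of 71 (28.2%) and ubiquitin and proteasome 14 of 57 (24.6%). In this middle range fell epha4a, an ephrin receptor, with 58.9%, 60.1% and 60.5% at 0, 2 and 4 hpf on 73, 158 and 152 reads. csgalnact2, an enzyme that starts chondroitin sulphate chains, had 54.3% of 35 reads, 72.6% of 190 and 69.8% of 192. lipin2, a phosphatidate phosphatase, had 56.8% of 44 reads, 59.2% of 147 and 68.0% of 147. Levels of these 3 sites were similar or higher at 4 hpf than at 0 hpf, with overlapping Wilson intervals.

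Among the chromatin genes bmi1b, of Polycomb repressive complexes (chromosome 2, position 20963154, minus strand), had 76.2% of 239 reads, 81.1% of 238 and 79.9% of 164, and BRPF3, of a histone acetyltransferase complex, had 50.9% of 106 reads at 2 hpf and 60.7% of 112 at 4 hpf. The ubiquitin group was led by det1, of a cullin ubiquitin ligase (chromosome 25, position 13647536, plus strand), with 86.0% of 876 reads, 87.5% of 295 and 88.4% of 189. fbxo30b, an F-box protein, had 53.1% of 32 reads at 2 hpf and 70.7% of 167 at 4 hpf. Like mknk2a, det1 combined a steady level with fewer reads at each stage, whereas the fbxo30b site had more reads at 4 than at 2 hpf.

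The lowest absent shares were found for RNA processing, cell cycle, ribosome biogenesis and translation. RNA processing and decay had 8 of 43 (18.6%, 9.74% to 32.6%), with a median coverage of 347 reads over the 43. The 8 included acin1b of the exon junction complex, with 81.1% of 53 reads, 75.4% of 69 and 59.3% of 167 at 0, 2 and 4 hpf, RBM25 and smg1, the kinase of nonsense-mediated decay. Cell cycle and genome maintenance had 4 of 26 (15.4%, median coverage 296), namely cdc7, CDK14, rif1 and pkmyt1. Ribosome biogenesis had 2 of 15 (13.3%, 3.74% to 37.9%, median coverage 155), ddx56 and ddx31. Translation had 1 of 10 (10.0%, 1.79% to 40.4%, median coverage 435), gspt1, a translation termination factor, with 97.6% of 41 reads at 2 hpf and 89.3% of 56 at 4 hpf. The nuclear pore group had 3 of 9 (33.3%, median coverage 505), nup133, nup153 and xpot, and the 197 high sites in no group had 82 (41.6%, 35.0% to 48.6%, median coverage 117). All these intervals are wide, and the order of the groups was not tested.

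Another way to look at the absent sites is through the other sites of their genes. Of the 256 genes 68 had at least 1 site at 6 hpf and 188 had none. Besides the absent sites, 115 of the genes had 230 sites at 4 hpf, mostly of lower level, with a median of 20.6%. Of these 136 were absent at 6 hpf (59.1%, 52.7% to 65.3%), against 59.8% of all 4 hpf sites, and in 56 genes all of them were. The choice of sites fixes part of this share. Any further high site of these genes that was absent would itself be an absent high site. The 21 high sites among the 230 were therefore all listed at 6 hpf, while all 4 hpf sites include the absent high sites. The 230 sites also had a median coverage of 120 reads, against 167 over the 4 hpf list. For both reasons the shares are not directly comparable. At 6 hpf the genes had 112 sites, 94 of which were also listed at 4 hpf, in 59 genes, and 18 of which were not. The deepest of the 18 was in HOOK2 (chromosome 3, position 8277700, minus strand), with 42 C reads of 413 (10.2%). Among the rest were a site of wdr90 with 11.3% of 97 reads and a site of tnika with 15.6% of 32 reads.

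The 94 shared sites were tested from 4 to 6 hpf, since none of them had been chosen as an absent high site. They were chosen by being listed at both stages, so each had passed the minimum of reads and level at 6 hpf. The 136 of 230 other sites that were absent at 6 hpf are left out, and a fall below the minimum level cannot be seen. The same limit holds for all shared sites. The median level of the 94 sites was 33.4% at 4 hpf and 23.9% at 6 hpf, with a median change of -4.5 points (-6.62 to -2.4). Fisher's exact test with Benjamini-Hochberg adjustment called 23 lower (24.5%, 16.9% to 34.0%) and 2 higher, against 34.1% lower and 1.01% higher among all 2367 shared sites. With the spread between stages added, 18 of the 94 were called lower and 2 higher, against 24.9% lower and 0.169% higher among all shared sites. Outside these genes 34.5% of 2273 sites were called lower, and the median change was -5.0 points. The difference between both shares was not tested, and the sites of these genes had fewer reads, a median of 246 at 4 hpf against 339 over all shared sites. Their coverage ratio of 6 to 4 hpf was 0.38 (0.323 to 0.439), against 0.488 (0.471 to 0.505) over all shared sites. Of the 94 sites 92 were more than 150 nt from an absent site, with a median distance of 11100 nt in the genome, introns included.

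**Figure D4:**
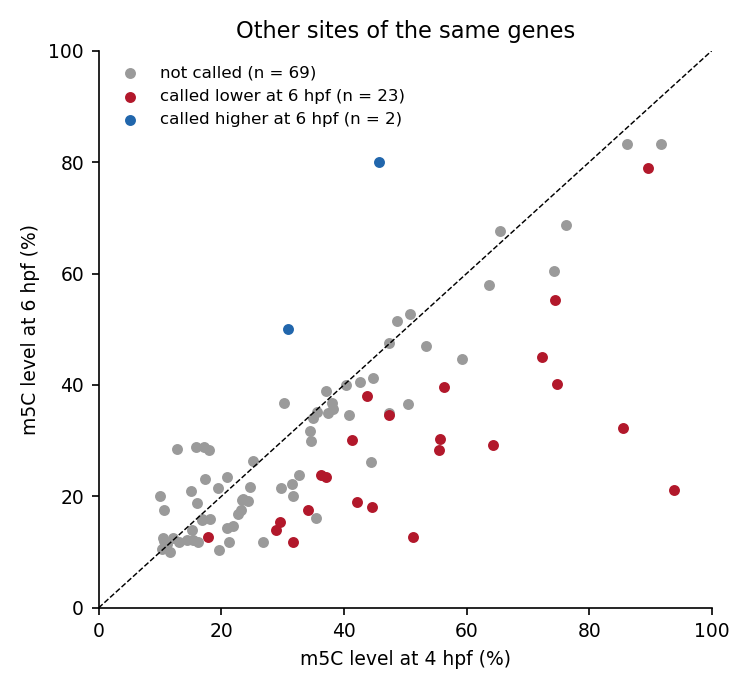
m5C level in percent at 4 hpf and 6 hpf of the 94 other sites in genes with an absent high site, where each point is 1 site and the dashed line marks equal levels. Red points are the 23 sites called lower at 6 hpf and blue points the 2 called higher by Fisher's exact test, and the median went from 33.4% to 23.9%.

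At some of these genes many reads were left at 6 hpf, and the level there was far lower. In huwe1, a ubiquitin ligase (chromosome 23, plus strand), the absent site at 28754299 had 63.6% of 33 reads at 0 hpf and 68.2% of 44 at 4 hpf, and was listed again at 8 hpf with 48 C reads of 462 (10.4%). Of its other sites, 28776900 fell from 29.6% of 351 reads to 15.4% of 540 (adjusted p = 3.59e-06, Fisher's exact test) and 28797700 from 55.6% of 248 to 30.3% of 228 (adjusted p = 1.84e-07, Fisher's exact test). In all, 4 of its 6 other sites were called lower and 2 were not called. Of the latter, 28782190 had a higher value at 6 hpf, 20.9% of 139 reads after 15% of 120. In ENSDARG00000075378 (chromosome 5, minus strand) the absent site at 8432898 had 53.7% of 54 reads at 4 hpf, and another site at 8428203 fell from 93.9% of 114 reads to 21.2% of 189. In both genes at least 1 of the sites had more reads at 6 than at 4 hpf.

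In xpot, the exporter of tRNA from the nucleus (chromosome 4, plus strand), coverage was lower too. Its absent site at 375644 had 58.4% of 77 reads at 2 hpf and 53.1% of 49 at 4 hpf, and its site at 377862 fell from 74.8% of 699 reads to 40.1% of 409 (adjusted p = 5.33e-29, Fisher's exact test). The site of rif1, a regulator of replication timing, at 23831808 of chromosome 9 fell from 37.0% of 4108 reads to 23.5% of 1250 (adjusted p = 4.12e-18, Fisher's exact test). Its other sites, at 23829618 (34.4% to 31.7%) and 23814478 (19.6% to 10.4%), were not called. Smaller falls were called in CT955967.1, from 17.8% of 2493 reads to 12.8% of 1505, and in ccdc22, of an endosomal complex, from 43.7% of 2234 reads to 38.0% of 836. Neither was called with the added spread (adjusted p = 0.192 and 0.335, beta-binomial z test). In ccdc22 the site at 24480276 was also called lower by Fisher's exact test, from 47.3% of 556 reads to 34.6% of 136. Its sites at 24478799 and 24480304 were not called.

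Other genes had a site whose change did not pass the test. In camk2g1, a calcium-dependent kinase, the site at 35924509 of chromosome 12 had 42.7% of 1266 reads at 4 hpf and 40.6% of 598 at 6 hpf (adjusted p = 0.631, Fisher's exact test), while 57.0% of 79 reads had been measured at 4 hpf at the absent site. In tmed1a, a cargo receptor of the secretory route, the site 324 nt from the absent one had 25.2% of 651 reads and 26.3% of 361 (adjusted p = 0.871, Fisher's exact test). That of aplp2 had 38.0% of 597 reads and 36.8% of 323, with an absent site of 93.5% at 4 hpf. The 2 sites called higher were in mpped2a, from 30.9% of 230 reads to 50% of 60, and in GPR180, from 45.7% of 46 reads to 80.0% of 20.

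The closest pair of an absent and a listed site was in rpap1, a protein that assembles RNA polymerase II (chromosome 17, minus strand). The absent site at 31624234 had 46 C reads of 90 at 4 hpf (51.1%). Its neighbour 9 nt away, at 31624243, had 216 of 290 reads at 4 hpf (74.5%) and 32 of 58 at 6 hpf (55.2%). No other absent site had a site within 10 nt in the 6 hpf list, and 9 of 264 (3.41%) had one within 10 nt at 4 hpf.

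Coverage at 6 hpf was not listed for the absent sites, so the coverage that the rest of the gene would leave was worked out as a description. For the 59 sites with another site at both stages, the 4 hpf coverage was multiplied by the gene's median ratio of 6 to 4 hpf coverage. It came to a median of 19.8 reads (16.5 to 25.1, range 7.24 to 89.5), with 29 sites at 20 reads or more and 30 below. In 4 it was 50 or more, among them ENSDARG00000075378 with 89.5, DYNC1H1, the heavy chain of dynein, with 67.9, and tmem39a with 58.9. Of the 29 sites 11 were listed at 8 hpf, against 61 of all 264 absent sites (23.1%), and the difference was not tested. This value assumes that reads over a gene change in proportion, which was not tested. It could not be had for absent sites without such a site in their gene. A value of 20 pooled reads would also not ensure listing, since the authors' filters looked at both libraries.

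Of the 264 absent sites 62 (23.5%) were listed again after 6 hpf, 61 of them at 8 hpf (23.1%, 18.4% to 28.6%). At 10 hpf 11 were listed, at 24 hpf 1, and at 16 and 48 hpf none, where a count of 0 allows a share of up to 1.43% by the Wilson interval. Kept high sites were listed at 8 hpf in 48.8% of cases (243 of 498), and sites under 50% that were absent at 6 hpf in 3.9% (127 of 3258). By coverage at 4 hpf the share of absent sites found at 8 hpf was 19.2% at under 50 reads, 24.8% at 50 to under 100 and 26.8% from 100 reads on, and these intervals overlap. In kept sites the shares of the same classes were 16.7% (2 of 12), 40.0% (20 of 50) and 50.7% (221 of 436). Most kept sites were thus in the deepest class, and the difference between both sets was not tested.

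At 8 hpf these 61 sites were mostly far lower than at 4 hpf. Their median level was 74.1% at 4 hpf (62.6% to 79.7%) and 25% at 8 hpf (22.9% to 34.0%), and 58 were lower and 3 higher in value. Wilson intervals of both stages were apart in 44 and overlapped in 17. Among kept sites listed at 8 hpf the intervals overlapped in 30 of 243. Kept sites had more reads, a median of 370 at 4 hpf and 172 at 8 hpf, against 62 and 66 in the absent sites. More reads give narrower intervals, so both counts of overlap are not directly comparable. The level at 4 hpf had chosen both sets, so these values are a description. At 8 hpf 13 sites (21.3%) were at 50% or more and 20 under 20%. The 243 kept sites at 8 hpf had gone from a median of 70.4% to 21.8%. In the 34 absent sites listed at 0, 2, 4 and 8 hpf the median level was 72.5%, 73.0%, 74.3% and 25.7%, with coverage of 173, 104, 77.5 and 67.5 reads.

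Reads for C and T moved in opposite directions. Over the 61 sites the median of C reads was 45 at 4 hpf and 21 at 8 hpf, that of T reads 19 and 45, and that of coverage 62 and 66. C reads were fewer in 51 sites and T reads more in 48. Among the 31 sites with more coverage at 8 than at 4 hpf, the level went from a median of 66.7% to 22.9%, and 21 had fewer C reads. Among the 30 with less coverage it went from 75.1% to 31.3%, and all 30 had fewer C reads. Whether methylated copies were lost or unmethylated ones were added was not tested, and reads are not scaled between libraries. The 61 sites also had to reach 20 reads and 10% at 8 hpf, so lower values are left out.

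**Figure D5:**
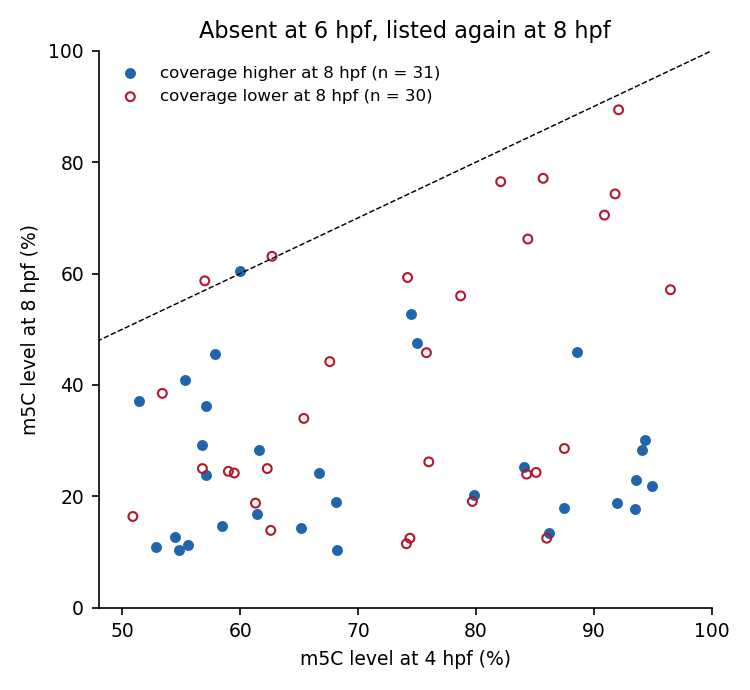
m5C level in percent at 4 hpf and 8 hpf of the 61 high sites absent at 6 hpf and listed again at 8 hpf, where each point is 1 site and the dashed line marks equal levels. Filled blue points are the 31 sites with higher and open red points the 30 with lower coverage at 8 hpf; 58 points lie below the line, and the median went from 74.1% to 25%.

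Of the named groups, kinases and signalling had the highest number, 12 of its 29 absent sites, while 17 of the sites listed again were in no group. In cab39l, an activator of the kinase LKB1 (chromosome 1, position 47113001, plus strand), the site had 64.1% of 39 reads, 77.9% of 77 and 66.7% of 33 at 0, 2 and 4 hpf, and 24.2% of 149 reads at 8 hpf. In mapk8a, the stress kinase JNK1 (chromosome 13, position 31373877, minus strand), it had 82.0% of 50 reads and 86.2% of 58 at 2 and 4 hpf, and 13.4% of 149 at 8 hpf. In abl2, a tyrosine kinase, it had 64.2% of 162 reads, 54.6% of 108, 54.5% of 77 and, at 8 hpf, 12.8% of 148. Each of these had more reads and a lower level at 8 hpf. Likewise oxsr1a, a kinase of the response to osmotic stress, had 92.0% of 25 reads at 4 hpf and 18.9% of 95 at 8 hpf, and RAPGEF2, an activator of Rap, had 79.8% of 94 and 20.2% of 124. With fewer reads at 8 hpf, pask went to 19.1% of 115 reads and gna11b, a G protein subunit, from 84.3% of 102 to 24.0% of 25.

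Other kinase sites were still high at 8 hpf. The site in tnika, a kinase of the Wnt and stress routes (chromosome 2, position 25942411, plus strand), had 85.2% of 162 reads, 90.7% of 54 and 85.7% of 49 at 0, 2 and 4 hpf, and 77.1% of 35 reads at 8 hpf. That of mknk2a had 66.2% of 74 reads at 8 hpf and 40.9% of 22 at 10 hpf. camk2g1 had 58.7% of 46 reads at 8 hpf, near its 57.0% at 4 hpf, and 15.9% of 44 at 10 hpf.

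A level of 50% or more at 8 hpf was also found outside this group. wdr90 had the highest level, 42 of 47 reads (89.4%, 77.4% to 95.4%), with 92.1% of 140 reads at 4 hpf. ATP5J, a subunit of mitochondrial ATP synthase (chromosome 9, position 20527712, plus strand), had 67.5%, 72.7% and 82.1% at 0, 2 and 4 hpf on 40, 44 and 78 reads, then 76.5% of 68 at 8 hpf and 60.9% of 64 at 10 hpf. RNPEPL1, an aminopeptidase-like protein, had 91.8% of 122 reads at 4 hpf and 74.3% of 35 at 8 hpf, and ugp2b, which makes UDP-glucose, 90.9% of 66 and 70.5% of 61. Each of these sites was lower in value at 8 than at 4 hpf, with less coverage.

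HOOK2, which links cargo to dynein (chromosome 3, position 8272647, minus strand), had 61.7%, 58.0%, 62.7% and 63.1% at 0, 2, 4 and 8 hpf, while its coverage went from 875 over 300 and 118 to 65 reads. This site was, with synrg of clathrin-coated vesicles (60.0% of 30 reads and 60.5% of 43) and camk2g1, 1 of the 3 sites with a higher value at 8 than at 4 hpf, and all 3 pairs of intervals overlap. Another HOOK2 site, at position 8277700, had 10.2% of 413 reads at 6 hpf. trappc6b had 74.2% of 124 reads at 4 hpf, 59.3% of 54 at 8 hpf and 37.5% of 24 at 10 hpf. The list of 13 was completed by amt of the glycine cleavage system (57.1% of 35), zp3c, an egg coat protein (56% of 25), and the chp2 site at 52.7%. Reads of zona pellucida genes such as zp3c and ZP2 may be shared between close copies, so their values are less certain.

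Most other sites listed again had low levels. In the cytoskeleton group trak2, an adaptor for mitochondrial transport, went from 74.1% of 116 reads to 11.5% of 78, MAP1S, which binds microtubules, from 76.0% of 100 to 26.2% of 61, and DYNC1H1 from 68.1% of 47 to 19.0% of 84. rtkn2a and PLEKHG3 had 28.3% and 18.8% at 8 hpf. Of chromatin genes, bcl7ba, of SWI/SNF remodelling complexes, had 88.6% of 70 reads at 4 hpf, 46% of 137 at 8 hpf and 11.8% of 203 at 10 hpf. kdm4ab, a histone demethylase, had 93.6% of 47 and 22.9% of 131, and ccnk, the cyclin of CDK12, 52.9% of 51 and 10.9% of 304. In rif1 the absent site at 23833933 of chromosome 9 had 45.6% of 780 reads at 0 hpf, 58.5% of 65 at 4 hpf and 14.7% of 456 at 8 hpf.

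Of metabolic genes, cat, the catalase (chromosome 25, position 7807398, minus strand), had 79.9% of 543 reads, 79.0% of 81 and 75% of 60 at 0, 2 and 4 hpf, then 47.5% of 61 at 8 hpf and 68.6% of 51 at 10 hpf. TIMM21, of mitochondrial protein import, had 89.9% of 853 reads at 0 hpf, 86.0% of 43 at 4 hpf and 12.5% of 40 at 8 hpf. bnip3lb, a receptor of mitophagy, had 55.3% of 47, 40.9% of 93 and 30.9% of 68 at 4, 8 and 10 hpf. The cat site was the only 1 of the 10 sites listed at both 8 and 10 hpf with a higher value at 10 hpf, and the others in that set were mknk2a, camk2g1, trappc6b, ATP5J, amt, bnip3lb, bcl7ba, tm7sf3 and sypl2a. hinfp, a histone gene activator, appeared at 10 hpf but not at 8 hpf, with 4 of 35 reads unconverted (11.4%) after 71.4% of 91 at 4 hpf.

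The sites under 50% at 8 hpf lay between 10.3% and 47.5%. In the glycan group they were edem2, b4galnt3b, pigb and fktn, which build or trim sugar chains, with 34.0%, 13.9%, 37.2% and 23.8%. Adhesion and egg coat genes were itgav (16.8%) and ZP2 (24.5%), membrane transport itpr3 (24.2%), ubiquitin genes mgrn1b (38.5%) and mycbp2 (25%) and vesicle genes rufy3 (45.8%) and lrp1b (28.3%). Genes in no group included tmub1 (16.4%), tmem243b (12.5%), tmem39a (14.4%), si:ch211-193k19.1 (24.3%), HEATR6 (44.2%), wdr20a (30.1%), aplp2 (17.8%), TMEM55B (11.3%), ccdc22 (29.3%), CT955967.1 (10.3%), tm7sf3 (25%), sypl2a (45.5%) and ENSDARG00000087962 (17.9%). The site of prrc2a (chromosome 19, position 27229318, minus strand) had the longest record, with 90% of 20 reads at 2 hpf, 94.9% of 39 at 4 hpf, 21.9% of 137 at 8 hpf and 11.3% of 291 at 24 hpf. Its coverage was higher and its level lower from 4 to 8 and from 8 to 24 hpf.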

How the data were processed

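Bisulfite libraries of polyadenylated RNA, 2 for each of 9 stages, were grouped by the stage named in the sample titles. As the study's methods state, the authors mapped reads with HISAT2 to a converted Zv9 genome and the remainder with Bowtie2 to converted transcripts, filtered reads and genes that resisted conversion, and tested each site by a binomial test. Reads with several genomic matches could enter through the transcripts. The authors also required a site to reach the minimum level in both libraries, with a combined p-value below a limit. Where low coverage hid a site in 1 library, a minimum number of C reads was required in the other. For each stage the authors deposited 1 list with the libraries combined, with coverage as the count of C and T reads together, the level as a fraction and a p-value, which was not used. C reads were the product of level and coverage, whole at every site within 1e-06.

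Lists were matched by chromosome, position and strand. The absent sites, lists and named genes were chosen with earlier results of these data known. Named were the 10 deepest absent sites, the 5 highest with at least 100 reads, genes with 2 such sites, sites listed again, sites with a neighbour within 10 nt, up to 8 with the deepest other site, up to 6 called from 0 to 2 hpf, 3 on either side of the threshold and up to 3 per group. Some further genes were named after their values were seen, and 1 gene that the rule selects is not reported here. Gene groups were assigned from symbols, which may miss genes, and 216 of 256 gene IDs (84.4%) were in a table of current names. Two-sided Fisher's exact tests (scipy 1.17.1, Python 3.11.15) were adjusted by Benjamini-Hochberg over all shared sites. A logistic model across replicates is not possible on pooled counts. A z test with beta-binomial variance, whose correlation (0.00232) was set on the 2 and 4 hpf lists, was the alternative. Both were run on simulated reads without variation between libraries, which cannot show how they behave when libraries vary. The correlation was fitted anew to each simulated pair of lists. Other alternatives were coverage of 50 or 100 reads, a level of 0.6, the Wilson bound, matching within 2 nt, sites over 150 nt away and the nearest site's ratio. Genic location and sequence context were not analysed here.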

Additional observations from a re-analysis of the deposited data

How the results depend on the processing

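No paired analysis was possible because both libraries of a stage were pooled in its list, so leaving out a replicate and a replicate block were not run. Across the alternatives, 43 main values were labelled the same as those given and 35 moved. The label allowed some change, as in 62 sites listed again against 47 at 50 reads in every list. Some of the 43 could not move. No absent site had a 6 hpf site within 2 nt, so every value was the same in that setting. The median change from 4 to 6 hpf does not depend on the test. Leaving out close other sites kept all 59 carried-over coverages, although rpap1 had only a close one. That limit was thus not applied to them. For single sites 73 values were on the same side of the threshold as before and 7 lost their call. Alternatives that changed only which sites counted as absent high sites left the test of each site as it was. Their agreement was fixed in advance and says nothing about how firm the calls are. All 7 losses among the followed sites came with the beta-binomial z test, the only alternative to Fisher's exact test. By that test tmem39a and trappc6b, which were not followed, also lost their calls. Of the other sites 18 were called lower from 4 to 6 hpf, against 23 by Fisher's exact test. Each change in points was the same in every alternative, so no direction could change. Depth limits each value, since a site of 57 reads has a wide interval and leaves the list when it has fewer than 20 reads. Why values moved was not tested.

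Asking for at least 50 reads in every list gave 246 absent sites, of which 81 were kept sites before, having fewer than 50 reads at 6 hpf. Median coverage was 92.5 reads in absent and 381 in kept high sites. From 0 to 2 hpf 6 absent sites were called higher and 2 lower. Of the other sites of their genes 1 was called higher and 12 lower between 4 and 6 hpf. The number tested and the share over all sites at this limit are not given, so these counts cannot be set against a background. A limit of 100 reads at 4 hpf left 56 absent sites, with median coverage of 122 against 364 reads, and 3 were called higher and 2 lower from 0 to 2 hpf. Then 0 other sites were called higher and 1 lower (2 and 23 by Fisher's exact test without the limit). The number tested is not given here either, and fewer absent sites leave fewer sites to be called. A carried-over coverage was available for 8 sites, 6 of them of 20 or more, and 15 were listed again.

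A level of at least 0.6 gave 171 absent sites, with a median of 77.9% at 0 hpf and 76.0% at 2 hpf, 3 called higher and 2 lower from 0 to 2 hpf, 0 and 11 other sites called higher and lower, and 35 with a carried-over coverage, 18 of them of 20 or more. A Wilson bound of at least 0.5 gave 154 sites, with median coverage of 64 reads, 78.1% at 0 hpf, 77.7% at 2 hpf, 3 called higher and 2 lower, 0 and 10 other sites called higher and lower, 29 with a carried-over coverage, 15 of them of 20 or more, and 41 listed again. For neither setting is the number of sites tested given, so the counts of called sites cannot be set against a background. Fewer absent sites also leave fewer sites to be called. A carried-over coverage of at least 50 was met by 4 sites.

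With the added spread 1 absent site was called higher and 0 lower from 0 to 2 hpf. Among the followed sites that lost their call, the adjusted p of the beta-binomial z test was 0.116 for tmub1, 0.0783 for ssfa2, 0.0836 for ENSDARG00000023479, 0.0595 for si:ch73-46j18.5 and 0.224 for wdr90. From 4 to 6 hpf it was 0.192 for CT955967.1 and 0.335 for ccdc22. The values of tmem39a and trappc6b, which lost their calls as well, are not given.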
